A study of Mus musculus with 16 samples.

Results

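Potassium channel genes were read as a family from the CA1 field of the mouse hippocampus: every gene whose symbol begins with Kcn and whose gene ID stands in both of the deposited tables. The rule used names and no measured value. It gave 93 genes of the 17986 that the tables share. Another 3 Kcn genes, Kcna7, Kcnv2 and Kcnk16, stood in 1 table only, where their highest value was 0.07 FPKM (fragments scaled by transcript length and sequencing depth), and they were left out. Of the 93 genes, 61 reached 1 FPKM in at least 2 of the 10 libraries and were tested, and 32 did not and are described by their levels.

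The libraries came from male mice aged 3 to 6 months on the C57Bl6 background, whose CA1 was cut by laser from frozen brain sections of 8 µm. The 4 groups were wild type mice from the home cage (n = 2), mice labelled N3 -/- (Neil3-deficient) from the home cage (n = 2), wild type mice after spatial exploration (n = 3) and mice labelled N3 -/- after spatial exploration (n = 3). Home cage mice had no intervention. The training described in the labels was 20 min a day for 1 week in an open arena with sides of 50 cm, and brains were taken 20 min after the last of these. The design text counts the same numbers of animals at baseline and after training, so each library was taken as 1 mouse. Another 6 samples, whose source is given as a learning condition, were not analysed here, and the labels do not say how their training differed. All groups shared diet, housing and handlers. The mutant allele, and the cells in which it acts, are not given in the sources used here.

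Potassium channels let potassium leave the cell and so set the resting potential, shape the action potential and limit repeated firing. In CA1 pyramidal cells, Kv4 channels with their KChIP partners carry the A-type current of the dendrites, Kv7 channels carry the M-current that muscarinic receptors suppress, and SK and BK channels follow the rise of calcium during a spike. Two-pore channels carry a leak current, GIRK channels open under G proteins, and the inward rectifier Kir4.1 (Kcnj10) is the main potassium channel of astrocytes.

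Some libraries stood apart or went against their labels. Neil3 (gene ID 234258), the targeted DNA glycosylase, stood between 0 and 0.05 FPKM in the 5 wild type libraries and between 8.35 and 15.2 FPKM in the 5 of the N3 -/- label (12.9 ± 2.87, SD, n = 5; difference 12.85 FPKM, exact permutation p = 0.00794, two-sided, the smallest that 252 splits allow). This goes against the labels, so the groups are called WT-labelled and KO-labelled, and every direction below is between labels. Ttr, the main transcript of choroid plexus, was at 218.7, 118 and 93.6 FPKM in WT-labelled home cage library 1 and WT-labelled exploration libraries 1 and 2, and at most 4.24 FPKM in the other 7 (named after its values were seen). All 6 CA1 markers were present in every library with a summed level of 721 to 999.8 FPKM, while of the 6 dentate granule markers C1ql2, Dsp, Prox1 and Tdo2 stayed at or below 0.73 FPKM, Stxbp6 reached 1.45 FPKM, and Calb1, which CA1 pyramidal cells also express, was at 37.9 to 86.8 FPKM. Each environment sits in a deposited table of its own, so environment and table cannot be told apart.

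The summed level of the 93 genes was 1398 to 1562 FPKM per library, or 0.313% to 0.371% of all FPKM. A few auxiliary and pore-forming subunits held much of it: Kcnab2, Kcnab1, Kcnip2 and Kcnd2 made up 40.4% to 51.6% of the sum. Of the 93 genes, 27 had a mean of at least 10 FPKM over the 10 libraries, 31 a mean from 1 to 10 FPKM and 17 a mean below 0.1 FPKM. In all 10 libraries 52 genes stayed at or above 1 FPKM.

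**Figure D1:**
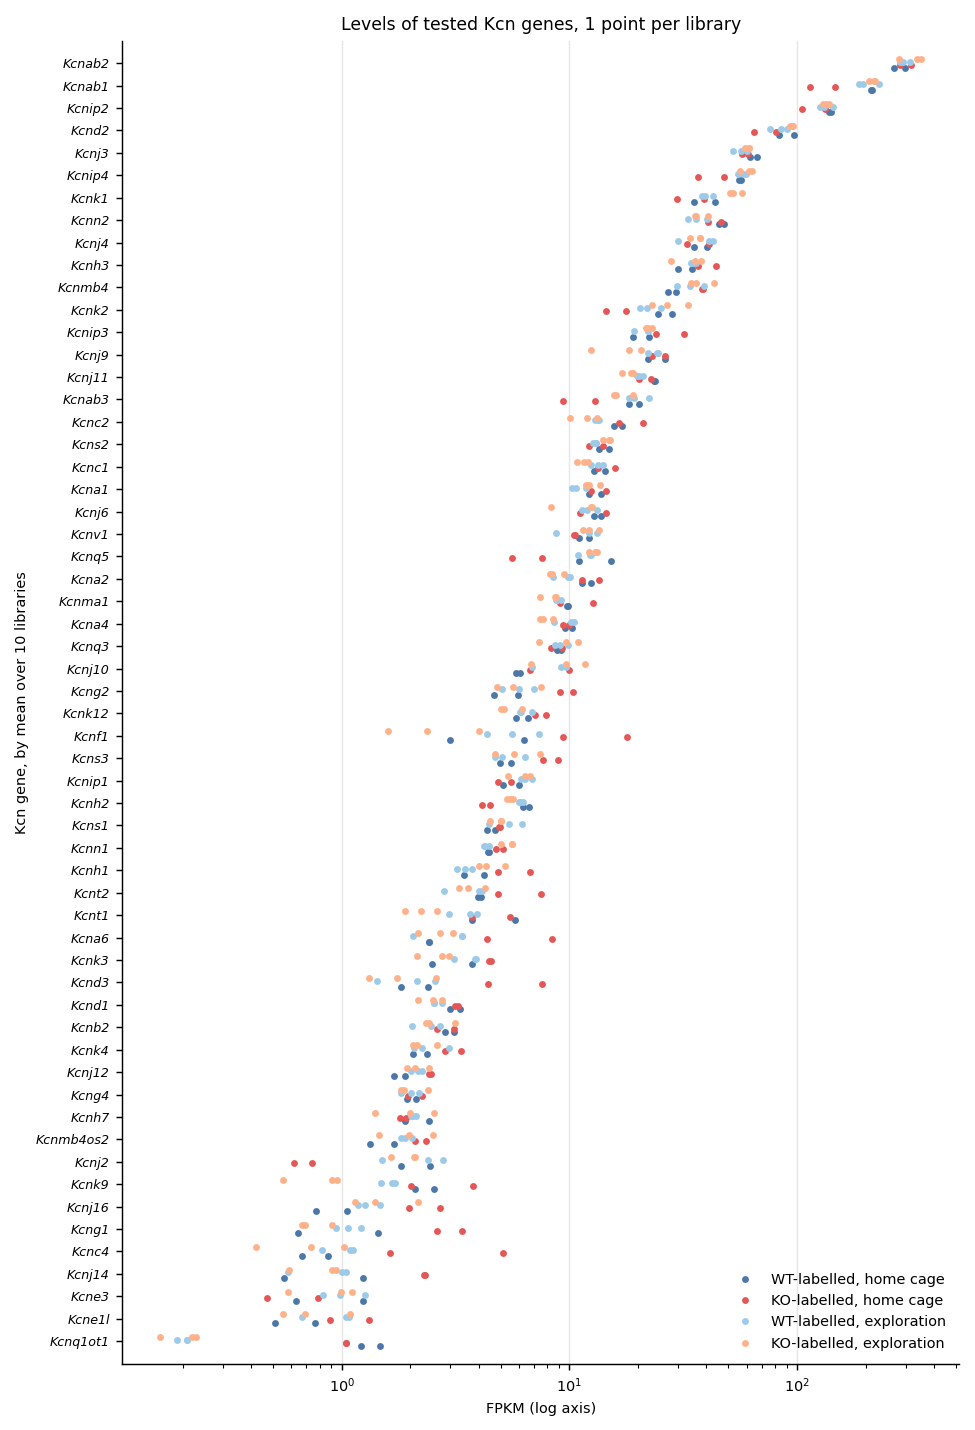
FPKM (log axis) of 58 tested Kcn genes, 1 point per library and 1 line per gene, ordered by the mean over the 10 libraries; colours mark the 4 groups (n = 2, 2, 3 and 3). Kcnab2 leads at 266 to 352 FPKM, and the red points of the KO-labelled home cage libraries lie to the left of the others for Kcnq5 and Kcnk2 and to the right for Kcnf1 and Kcng1.

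Among auxiliary subunits, the Kv beta genes, which bind Kv1 channels from the cytoplasm, were the most abundant of the family. Kcnab2 measured 298 and 266 FPKM in the WT-labelled home cage libraries, 316 and 282 FPKM in the KO-labelled home cage libraries, 293, 314 and 283 FPKM in the WT-labelled exploration libraries and 279.6, 338 and 352 FPKM in the KO-labelled exploration libraries. All 4 groups overlapped, and Kcnab2 passed no test. Kcnip2, a KChIP that traffics Kv4 channels to the membrane, ranged from 105 to 144 FPKM, and Kcnip4 from 36.6 to 63.4 FPKM. Kcnip3 and Kcnip1 were lower, at 19.0 to 31.9 and 4.87 to 6.85 FPKM. Kcnmb4, the beta subunit of neuronal BK channels, stood at 27.2 to 43.1 FPKM, above its pore partner Kcnma1 at 7.44 to 12.7 FPKM.

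Of the pore-forming Kv genes, Kcnd2 (Kv4.2) led at 64.7 to 96.8 FPKM. The Kv3 genes Kcnc2 and Kcnc1, of fast repolarisation, stood at 10.1 to 21.1 and 10.8 to 15.8 FPKM. The delayed rectifier Kcnb2 was at 2.03 to 3.14 FPKM. Kcna1, Kcna2 and Kcna4, the axonal Kv1 subunits, ranged from 10.3 to 14.4, 8.21 to 13.5 and 7.44 to 10.4 FPKM. Ranges of these 3 overlapped. Kcnh3 was the highest of the ether-a-go-go genes at 27.9 to 43.9 FPKM, while Kcnh1 was at 3.20 to 6.75 and Kcnh7 at 1.40 to 2.55 FPKM. Kcnv1 and Kcns2, subunits that form no channel alone and modify Kv2 channels, stood at 8.71 to 13.5 and 12.2 to 15.1 FPKM.

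Calcium-activated, G protein-gated and leak channels each had few leading members. Kcnn2 (SK2), the SK channel of CA1 spines, was at 33.2 to 47.8 FPKM, against 4.22 to 5.62 FPKM for Kcnn1 and at most 1.90 FPKM for Kcnn3. Kcnj3 (GIRK1), the shared subunit of neuronal GIRK channels, was at 52.6 to 66.6 FPKM, with its partners Kcnj9 at 12.5 to 26.4 and Kcnj6 at 8.33 to 14.5 FPKM. Kcnk1 (TWIK1) and Kcnk2 (TREK1), a mechanosensitive leak channel, led the two-pore genes at 29.7 to 57.1 and 14.4 to 33.1 FPKM. Kcnk4 (TRAAK) stood at 2.06 to 3.35 FPKM. Kcnj10, the astrocyte rectifier, was at 5.84 to 11.7 FPKM, and its partner Kcnj16 at 0.77 to 2.70 FPKM.

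Promoters of 4 genes on which the comparisons turn are shown as the RefSeq sequence of GRCm38.p6, from 250 bases before the annotated start to 50 after it, 5′ to 3′ on the gene's strand. Capitals mark GC boxes, found as GGGCGG or its reverse complement CCGCCC. Kcnab1 (chr3:64948962-64949261, plus strand, the first of 3 listed starts) and Kcnq5 (chr1:21961893-21962192, minus strand, the first of 2 listed starts and the one farther inside the gene) were lower in the KO-labelled home cage libraries. Kcnh2 was lower there too. Its window (chr5:24329542-24329841, minus strand) is at the only start the table lists for it, which lies inside the gene's span of chr5:24319589-24351684, so it is not the promoter at the gene's outer 5′ end. Kcnf1 (chr12:17176839-17177138, minus strand) differed most in its response to exploration. Kcng1, the fourth gene called in that last comparison, has no entry in the table used.
Kcnab1: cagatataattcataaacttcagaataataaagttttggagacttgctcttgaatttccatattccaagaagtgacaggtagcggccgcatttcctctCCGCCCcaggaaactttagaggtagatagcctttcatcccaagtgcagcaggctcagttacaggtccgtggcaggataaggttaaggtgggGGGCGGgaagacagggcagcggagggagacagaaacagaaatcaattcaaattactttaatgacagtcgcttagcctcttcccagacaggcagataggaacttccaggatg
Kcnq5: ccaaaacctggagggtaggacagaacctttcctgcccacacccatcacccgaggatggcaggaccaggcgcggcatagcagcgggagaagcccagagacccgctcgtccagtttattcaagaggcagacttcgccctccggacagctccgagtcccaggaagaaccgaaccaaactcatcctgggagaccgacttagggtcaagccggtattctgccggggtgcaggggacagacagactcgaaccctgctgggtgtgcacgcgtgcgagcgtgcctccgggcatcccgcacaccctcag
Kcnh2: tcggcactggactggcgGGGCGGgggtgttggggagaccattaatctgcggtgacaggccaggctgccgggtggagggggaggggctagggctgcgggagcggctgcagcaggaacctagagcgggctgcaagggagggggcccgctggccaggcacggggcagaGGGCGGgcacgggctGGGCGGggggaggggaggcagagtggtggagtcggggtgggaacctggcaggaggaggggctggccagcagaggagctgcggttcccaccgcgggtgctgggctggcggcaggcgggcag
Kcnf1: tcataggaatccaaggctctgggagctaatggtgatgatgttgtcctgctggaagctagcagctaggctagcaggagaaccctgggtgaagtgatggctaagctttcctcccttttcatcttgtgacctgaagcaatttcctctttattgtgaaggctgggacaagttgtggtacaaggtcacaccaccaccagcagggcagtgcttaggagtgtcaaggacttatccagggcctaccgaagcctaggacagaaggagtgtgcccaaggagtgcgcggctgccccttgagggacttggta
The sequences differ in composition: GC content was 46.7% for Kcnab1, 62.7% for Kcnq5, 74.3% for Kcnh2 and 53.0% for Kcnf1. GC boxes stood in 2 places in Kcnab1 and in 3 in Kcnh2, and in none in Kcnq5 and Kcnf1. None of the 4 held the cyclic AMP response element TGACGTCA, its shorter core TGACG, the AP-1 motif TGANTCA, the EGR motif GCGTGGGCG, the E-box CACGTG or the TATA letters TATAAA, each searched on both strands (a full cyclic AMP element also holds that core). Over the family, 68 of 93 genes matched the table, with 93 promoters. GGGCGG was in 49.5% of these promoters and in 35.7% of all 32851 promoters of the same length, TATAAA in 5.4% and 13.6%, CACGTG in 7.5% and 7.2%, TGACG in 19.4% and 20.8%, TGANTCA in 4.3% and 7.8%, TGACGTCA in 0% and 1.8%, and GCGTGGGCG in 0% and 0.6%. The median GC content was 58.3% in the family's promoters and 52.7% in all. These shares describe the letters in the window and were not tested.

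Between labelled genotypes in the home cage, 12 of the 61 tested Kcn genes passed the test, 6 up and 6 down under the KO label. The lower genes were the Kv7 subunit Kcnq5, the Kv beta subunits Kcnab1 and Kcnab3, Kcnh2 (ERG1), the inward rectifier Kcnj2 (Kir2.1) and the leak channel Kcnk2. The higher ones were Kcnd3 (Kv4.3), Kcna6 (Kv1.6), the silent subunits Kcng1 and Kcng2, and the inward rectifiers Kcnj14 and Kcnj16. Here 19.7% of the tested family was called, where 3.57% of all 11892 tested genes were. Called higher were 2.12% of all genes and called lower 1.45%. The test was limma on log2(FPKM + 1) with Benjamini-Hochberg adjustment over all tested genes, called at an adjusted p under 0.05. Log2 differences below are on that scale, which understates the change of genes near 1 FPKM. For a called gene, groups that do not overlap come from the same libraries as the call and add no support to it. Fewer cells of a type and less RNA per cell cannot be told apart in such bulk samples.

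Kcnq5, a subunit of M-current channels, was at 15.3 and 11.1 FPKM in the WT-labelled and 7.60 and 5.62 FPKM in the KO-labelled home cage libraries. Both KO-labelled values lay below both WT-labelled ones, a log2 difference of -0.89 ± 0.15 (SE, adjusted p = 0.0153). Kcnq3, with which it can share a channel, was not called (-0.03 ± 0.14, SE, adjusted p = 0.943). Kcnh2, which carries a slow repolarising current, measured 6.68 and 6.26 FPKM against 4.13 and 4.47 FPKM with no overlap, a difference of -0.50 ± 0.10 (SE, adjusted p = 0.0233).

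Kcnab1 (Kv beta 1), which speeds the inactivation of Kv1 channels, was at 211 and 213 FPKM in the WT-labelled home cage libraries and 147 and 113.5 FPKM in the KO-labelled ones. The groups did not overlap, and the log2 difference was -0.71 ± 0.12 (SE, adjusted p = 0.0167). Kcnab3 went the same way, from 20.2 and 18.4 FPKM to 13.02 and 9.37 FPKM (-0.75 ± 0.15, SE, adjusted p = 0.0233), while Kcnab2 differed by 0.08 ± 0.12 (SE, adjusted p = 0.755). Within the Kv beta genes, Kcnab1 had a mean share of 41.4% in the WT-labelled and 29.5% in the KO-labelled libraries, and Kcnab2 one of 54.9% and 68.0%. These shares were not tested. The RefSeq span of Kcnab1 overlaps the listed genes A330015K06Rik and A730090N16Rik, and whether strand was used in counting is not given in the sources used here.

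Kcnd3 was the called Kv gene with the largest difference in this comparison. It measured 1.82 and 2.39 FPKM in the WT-labelled and 4.38 and 7.61 FPKM in the KO-labelled home cage libraries, a log2 difference of 1.14 ± 0.25 (SE, adjusted p = 0.0345). Kcnd2, the main Kv4 gene, went from 82.98 and 96.8 FPKM to 81.01 and 64.7 FPKM and was not called (-0.30 ± 0.12, SE, adjusted p = 0.187). Kcnd3 made up 2.1% and 2.3% of Kv4 FPKM in the WT-labelled libraries, and 4.9% and 10.1% in the KO-labelled ones. Kcna6, an axonal Kv1 subunit, measured 2.42 and 2.43 FPKM against 4.34 and 8.37 FPKM (1.05 ± 0.24, SE, adjusted p = 0.0392). It lies on chromosome 6 beside Kcna1, which differed by 0.04 ± 0.11 (SE, adjusted p = 0.882) and was not called. KO-labelled library 2 was the higher of the pair for both Kcnd3 and Kcna6.

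The silent subunits Kcng1 and Kcng2, which join Kv2 channels and form none alone, were higher in both KO-labelled libraries. Kcng1 measured 0.64 and 1.44 FPKM against 2.61 and 3.37 FPKM (0.99 ± 0.18, SE, adjusted p = 0.0215), and Kcng2 5.96 and 4.67 FPKM against 9.08 and 10.4 FPKM (0.77 ± 0.18, SE, adjusted p = 0.0412). Over all 9 silent genes the summed level was 48.6 ± 4.7 FPKM (SD, n = 2) in the WT-labelled and 65.4 ± 7.1 FPKM (SD, n = 2) in the KO-labelled home cage libraries. Kcnf1, which is part of that sum, was at 2.99 and 6.31 FPKM against 9.42 and 17.8 FPKM and was not called (1.38 ± 0.36, SE, adjusted p = 0.0605). Kcns2 and Kcnv1, the most abundant silent genes, had lower means under the KO label, 13.1 against 14.2 and 10.5 against 11.6 FPKM. Neither was called.

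Inward rectifiers moved in both directions. Kcnj2 measured 2.44 and 1.82 FPKM in the WT-labelled and 0.74 and 0.62 FPKM in the KO-labelled home cage libraries, with no overlap (-0.89 ± 0.19, SE, adjusted p = 0.0298). Its neighbour Kcnj16, at chr11:110968033-111027968 where Kcnj2 lies at chr11:111066164-111076825 (GRCm38.p6), went the other way, from 0.77 and 1.06 FPKM to 1.98 and 2.70 FPKM (0.80 ± 0.19, SE, adjusted p = 0.0391). Kcnj14 was at 0.56 and 1.24 FPKM against 2.30 and 2.32 FPKM, higher in both KO-labelled libraries (0.82 ± 0.19, SE, adjusted p = 0.0391). Kcnj10, which pairs with Kcnj16 in astrocytes, was at 6.05 and 5.84 FPKM against 6.73 and 10.01 FPKM and was not called (0.41 ± 0.22, SE, adjusted p = 0.362). Kcnk2, opened by stretch and lipids, was at 28.3 and 24.6 FPKM against 17.7 and 14.4 FPKM, a difference of -0.69 ± 0.16 (SE, adjusted p = 0.038), and its share of two-pore FPKM was 33.6% and 32.8% against 23.8% and 23.1%.

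**Figure D2:**
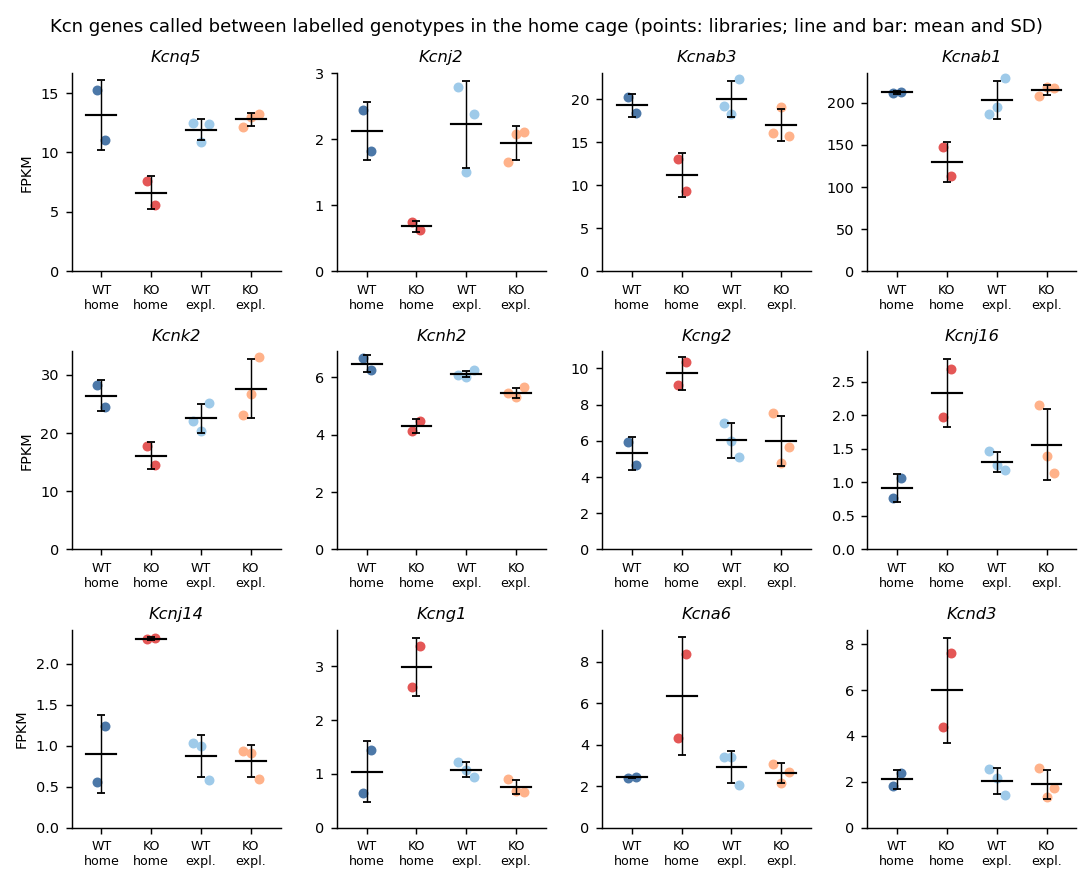
FPKM (linear axis from 0) of the 12 Kcn genes called between labelled genotypes in the home cage, for all 4 groups (WT and KO are the labels); points are libraries, the line and bar are the mean and SD. In every panel both KO-labelled home cage points lie outside the range of the WT-labelled home cage points, whereas the exploration points of the 2 labels overlap for all of the genes except Kcnh2 and Kcng1. The genes were picked by the test on these same home cage libraries, so their separation there is no further support.

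All 12 calls rested on few libraries. Without KO-labelled home cage library 2, 0 of the 61 genes were called, and the 12 differences stood at 0.64 to 0.85 for the higher and -0.84 to -0.53 for the lower genes. Without WT-labelled home cage library 1, which holds the highest Ttr, 0 were called as well, with 0.56 to 1.04 and -0.75 to -0.46. Without WT-labelled home cage library 2, 3 were called. No sign changed. Leaving out KO-labelled home cage library 1 gave 14 calls, which held 8 of the 12 and not Kcng2, Kcnh2, Kcnj14 or Kcnj2. Of the 12 calls 7 held without WT-labelled exploration library 1, 6 without WT-labelled exploration library 2 and 8 without KO-labelled exploration library 2. With no filter on low values 0 were called, and with a filter of 5 FPKM 6. Markers of some other cells moved with the same groups. The astrocyte list summed to 62.6 to 69.5 FPKM in the WT-labelled and 97.3 to 124.1 FPKM in the KO-labelled home cage libraries. All 6 of its genes were detected and 2 were called higher, with Aqp4 at 3.72 and 4.23 against 6.16 and 7.32 FPKM. The oligodendrocyte list summed to 143.3 to 171.1 and 195.1 to 233.8 FPKM, the microglia list to 35.7 to 39.0 and 49.4 to 53.8 FPKM, and the CA2 list to 116.0 to 234.2 and 105.9 to 106.4 FPKM. The CA3, endothelial and mural sums did not overlap either, at 151.5 to 194.0 and 122.6 to 129.0 FPKM, 21.1 to 21.8 and 26.9 to 32.6 FPKM, and 13.2 to 14.6 and 16.3 to 25.0 FPKM. In the CA2 list Pcp4 was at 84.3 FPKM in WT-labelled library 1 and 10.7 FPKM in library 2, against 5.05 and 9.43 FPKM. No CA2 gene was called. Interneuron sums overlapped, at 215.0 to 239.3 and 229.2 to 248.7 FPKM, as did those of the dentate and blood lists. The whole CA1 list was at 847.1 to 861.8 and 720.9 to 846.4 FPKM, with 1 of its 6 genes called in each direction: Wfs1 was lower, at 219 and 192 against 127 and 64.9 FPKM, and Mpped1 higher, at 157 and 184 against 219 and 234 FPKM. Their part in the Kcn differences was not tested.

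After spatial exploration, no Kcn gene was called between labelled genotypes by limma, where 0.597% of all tested genes were. At an unadjusted p under 0.05 stood 11 of the 61 Kcn genes, beside 17.2% of all genes. The 12 genes called in the home cage had log2 differences from -0.24 (Kcng1) to 0.27 (Kcnk2) here. Kcnq5 measured 12.5, 10.9 and 12.4 FPKM in the WT-labelled and 12.2, 12.97 and 13.2 FPKM in the KO-labelled exploration libraries, overlapping ranges (0.10 ± 0.12, SE, adjusted p = 0.722). Kcnab1 overlapped as well, at 187, 195 and 229 FPKM against 208, 219 and 218 FPKM (0.08 ± 0.10, SE, adjusted p = 0.709). Of the 12 differences 4 kept the home cage sign, or 33.3%, where 49.4% of all 425 genes called in the home cage did.

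Among the genes that did not pass, Kcnk9, Kcnk1 and Kcnt1 are given as examples of ranges apart. Other tested Kcn genes stood apart too, among them Kcnf1, Kcnj9, Kcnn1 and Kcnh1. How many of all genes do so was not counted, so the examples are no result about the family. Kcnk9 (TASK3), an acid-sensitive leak channel, was at 1.72, 1.66 and 1.49 FPKM in the WT-labelled and 0.55, 0.91 and 0.95 FPKM in the KO-labelled exploration libraries (-0.55 ± 0.16, SE, adjusted p = 0.137). Every KO-labelled value lay below every WT-labelled one. Kcnk1 was at 38.2, 39.5 and 42.7 FPKM against 52.4, 50.7 and 57.1 FPKM, all higher under the KO label (0.40 ± 0.11, SE, adjusted p = 0.107). Kcnt1, a sodium-activated channel, was at 2.97, 3.68 and 3.95 FPKM against 2.61, 2.23 and 1.89 FPKM, all lower (-0.48 ± 0.16, SE, adjusted p = 0.174). The differences of Kcnk9, Kcnk1 and Kcnt1 did not hold against the adjustment.

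Averaged over both environments, 2 Kcn genes were called lower under the KO label, 3.28% of the tested family beside 2.13% of all genes. Kcnab3 differed by -0.49 ± 0.10 (SE, adjusted p = 0.0296), with all 3 KO-labelled exploration values, 16.1, 19.1 and 15.7 FPKM, within or below the WT-labelled ones of 19.2, 18.3 and 22.3 FPKM. Kcnh2 differed by -0.32 ± 0.06 (SE, adjusted p = 0.0313), and its exploration values of 5.46, 5.30 and 5.65 FPKM under the KO label lay below all of 6.09, 6.02 and 6.24 FPKM under the WT label. Kcnh2 was the one gene of the 12 whose groups stood apart in both environments in the same direction. Both calls were lost without WT-labelled home cage library 1 or 2 or WT-labelled exploration library 1 or 3. With each library left out in turn, Kcnh2 stayed at -0.34 to -0.29 and Kcnab3 at -0.60 to -0.38.

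In WT-labelled mice, home cage and exploration differed in 1 Kcn gene of 61, 1.64% of the tested family beside 6.31% of all genes. This was Kcnq1ot1, the long noncoding RNA that silences its imprinted domain on the paternal chromosome, read antisense from within Kcnq1. It reached 1 FPKM in the 4 home cage libraries alone, so the filter on low values picked it by the groups compared. It was at 1.22 and 1.47 FPKM in the home cage and 0.19, 0.21 and 0.21 FPKM after exploration, a log2 change of -0.96 ± 0.12 (SE, adjusted p = 0.000972). With no filter the adjusted p was 0.000209 (limma). The KO-labelled libraries were at 1.05 and 1.05 FPKM and 0.22, 0.23 and 0.16 FPKM (-0.77 ± 0.12, SE, adjusted p = 0.00199). All 4 home cage libraries were above all 6 exploration libraries. Kcnq1ot1 lies at chr7:143213111-143296547 inside Kcnq1 at chr7:143106877-143427050 (GRCm38.p6). Kcnq1, the host gene, was at most 0.09 FPKM in every library. The split follows the deposited tables exactly. The change in WT-labelled mice was -1.03 and no longer called without the 3 libraries with high Ttr, which leaves 1 library in each of the 2 WT-labelled groups.

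Among coding members the nearest to a call in WT-labelled mice was Kcnn2, at 45.6 and 47.8 FPKM in the home cage and 36.1, 33.2 and 40.1 FPKM after exploration (-0.35 ± 0.10, SE, adjusted p = 0.0517). Both home cage values lay above all 3 exploration values. When the 2 WT-labelled groups were fitted alone, 5 Kcn genes were called instead of 1. The share of all genes called in that fit is not reported here. Interneuron markers summed to 215.0 to 239.3 FPKM in the WT-labelled home cage and 304.3 to 362.8 FPKM after exploration. Of these 8 markers 1 was called higher, where 2.02% of all genes were. Within that sum Sst went from 56.8 and 63.0 FPKM to 148.4, 133.9 and 92.8 FPKM. Oligodendrocyte sums were 143.3 to 171.1 and 203.9 to 376.2 FPKM. Astrocyte, microglia, blood, endothelial and mural sums were also higher without overlap, while CA1, CA2, CA3, dentate and choroid plexus sums overlapped. Their part in the Kcn changes was not tested.

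In KO-labelled mice the same comparison gave 28 calls among the 61 Kcn genes, 9 higher and 19 lower after exploration. Kcnq5, Kcnab1, Kcnk1, Kcnk2 and Kcnip4 were among those that rose, and Kcnf1, Kcnd3, Kcng1, Kcnk9, Kcnj14, Kcnc2 and Kcnq1ot1 among those that fell. Since Kcnq1ot1 reached 1 FPKM in the home cage libraries alone, the filter picked it by the groups compared. It is counted in the shares that follow, and with no filter its adjusted p was 0.0015 (limma). The calls took in 45.9% of the tested family, where 28.6% of all genes were called. For higher calls the share was 14.8% beside 12% of all genes, and for lower calls 31.1% beside 16.6%. The median log2 change was -0.21 over the 61 genes and -0.04 over all tested genes. With median-of-ratios size factors the calls over all genes moved from 42% to 54.6% higher, and those of the family to 9 higher and 17 lower.

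Kcnf1, a silent subunit, changed most. It measured 9.42 and 17.8 FPKM in the KO-labelled home cage libraries and 4, 2.37 and 1.60 FPKM in the KO-labelled exploration libraries, a log2 change of -1.99 ± 0.33 (SE, adjusted p = 0.00238). Every exploration value was below both home cage values, although the home cage values themselves were far apart. Over the 10 libraries Kcnf1 spanned 11.2-fold. Kcng1, of the same class, went from 2.61 and 3.37 FPKM to 0.91, 0.69 and 0.67 FPKM (-1.18 ± 0.17, SE, adjusted p = 0.00163), again without overlap.

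Of the 6 tested leak channels of the two-pore class, 2 rose and 3 fell, where 12% and 16.6% of all genes did. Kcnk9 fell from 2.01 and 3.79 FPKM in the KO-labelled home cage libraries to 0.55, 0.91 and 0.95 FPKM after exploration (-1.08 ± 0.18, SE, adjusted p = 0.00253). Kcnk1 rose from 39.02 and 29.7 FPKM to 52.4, 50.7 and 57.1 FPKM (0.63 ± 0.12, SE, adjusted p = 0.00417) and Kcnk2 from 17.7 and 14.4 FPKM to 23.04, 26.8 and 33.1 FPKM (0.74 ± 0.14, SE, adjusted p = 0.00471). For all 3 genes the groups stood apart. Kcnk9 made up 2.7% and 6.1% of two-pore FPKM in the KO-labelled home cage libraries and 0.6% to 1.0% after exploration.

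Kcnc2, a Kv3 gene known from fast-spiking interneurons, went from 16.5 and 21.1 FPKM to 13.3, 11.9 and 10.1 FPKM (-0.64 ± 0.12, SE, adjusted p = 0.00419). Kcnd3 went from 4.38 and 7.61 FPKM to 2.59, 1.32 and 1.75 FPKM (-1.26 ± 0.23, SE, adjusted p = 0.00369), while the 5 WT-labelled libraries lay at 1.43 to 2.56 FPKM. Kcna2 and Kcnc1 were also called lower, with changes of -0.47 and -0.32 on the log2 scale. Kcnq5 rose from 7.60 and 5.62 FPKM to 12.2, 12.97 and 13.2 FPKM (0.87 ± 0.14, SE, adjusted p = 0.00213), while Kcnq3 was not called. Kcnd2 rose, from 81.01 and 64.7 FPKM to 96.2, 95.4 and 93.05 FPKM (0.39 ± 0.11, SE, adjusted p = 0.0212). Its auxiliary subunit Kcnip4 rose from 47.8 and 36.6 FPKM to 61.5, 63.4 and 55.9 FPKM (0.52 ± 0.10, SE, adjusted p = 0.00514), while Kcnip1, Kcnip2 and Kcnip3 were not called.

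Kcnab1 rose from 147 and 113.5 FPKM in the KO-labelled home cage libraries to 208, 219 and 218 FPKM after exploration, a log2 change of 0.73 ± 0.11 (SE, adjusted p = 0.00199). All 3 exploration values were above both home cage values and within the range of the WT-labelled libraries. Kcnj14 fell from 2.30 and 2.32 FPKM to 0.94, 0.91 and 0.59 FPKM (-0.87 ± 0.18, SE, adjusted p = 0.00519). The GIRK gene Kcnj9 was at 23.1 and 26.2 FPKM and 18.2, 20.7 and 12.5 FPKM (-0.53 ± 0.16, SE, adjusted p = 0.0328), and its partners Kcnj3 and Kcnj6 were not called. Kcnt1 went from 3.73 and 5.49 FPKM to 2.61, 2.23 and 1.89 FPKM (-0.78 ± 0.18, SE, adjusted p = 0.0102).

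Most of these calls depended on KO-labelled home cage library 2. Without it 6 of the 28 remained, namely Kcnab1, Kcnf1, Kcng1, Kcnk9, Kcnq1ot1 and Kcnq5. The changes of the 28 then stood at 0.23 to 0.76 and -1.56 to -0.20. No sign could change, because the 2 groups stood apart for all 28. The exploration comparison in KO-labelled mice shares its 2 home cage libraries with the home cage comparison between labels, so the values of a gene in both are not independent. Of the 28 called genes 16 had the same sign of change in the WT-labelled mice, or 57.1%, where 80.0% of all 3400 called genes did; these 2 comparisons share no library. Over all 61 tested Kcn genes 33 had the same sign, or 54.1%, beside 69.5% of all genes. Interneuron markers summed to 229.2 to 248.7 FPKM in the KO-labelled home cage and 279.7 to 341.9 FPKM in the KO-labelled exploration libraries. All 8 were detected and 2 of them were called higher. CA2 markers summed to 105.9 to 106.4 and 152.1 to 254.4 FPKM, and astrocyte markers to 97.3 to 124.1 and 95.1 to 107.3 FPKM. Of the tested CA2 genes 3 of 4 were called higher and of the CA3 genes 2 of 3, where 12% of all genes were. Within the CA2 sum Rgs14 was at 99.6 and 94.1 FPKM against 114.3, 96.8 and 118.5 FPKM. Pcp4 went from 5.05 and 9.43 FPKM to 69.2, 46.3 and 112.6 FPKM. The CA3 sums were 122.6 to 129.0 and 171.3 to 221.8 FPKM, those of blood 124.6 to 149.2 and 160.0 to 291.2 FPKM, of oligodendrocytes 195.1 to 233.8 and 238.6 to 274.8 FPKM, and of the dentate list 66.9 to 88.9 and 39.4 to 59.2 FPKM. Most of the dentate sum was Calb1, which CA1 pyramidal cells also express, at 65.4 and 86.8 against 57.4, 37.9 and 47.4 FPKM. The CA1 list went from 720.9 to 846.4 FPKM in the home cage to 883.6 to 999.8 FPKM, with 3 of its genes called higher (Lefty1 by 1.19, Wfs1 by 1.10 and Spink8 by 0.77 on the log2 scale) and 2 lower (Fibcd1 at -0.40 and Mpped1 at -0.40). Their part in the changes was not tested.

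**Figure D3:**
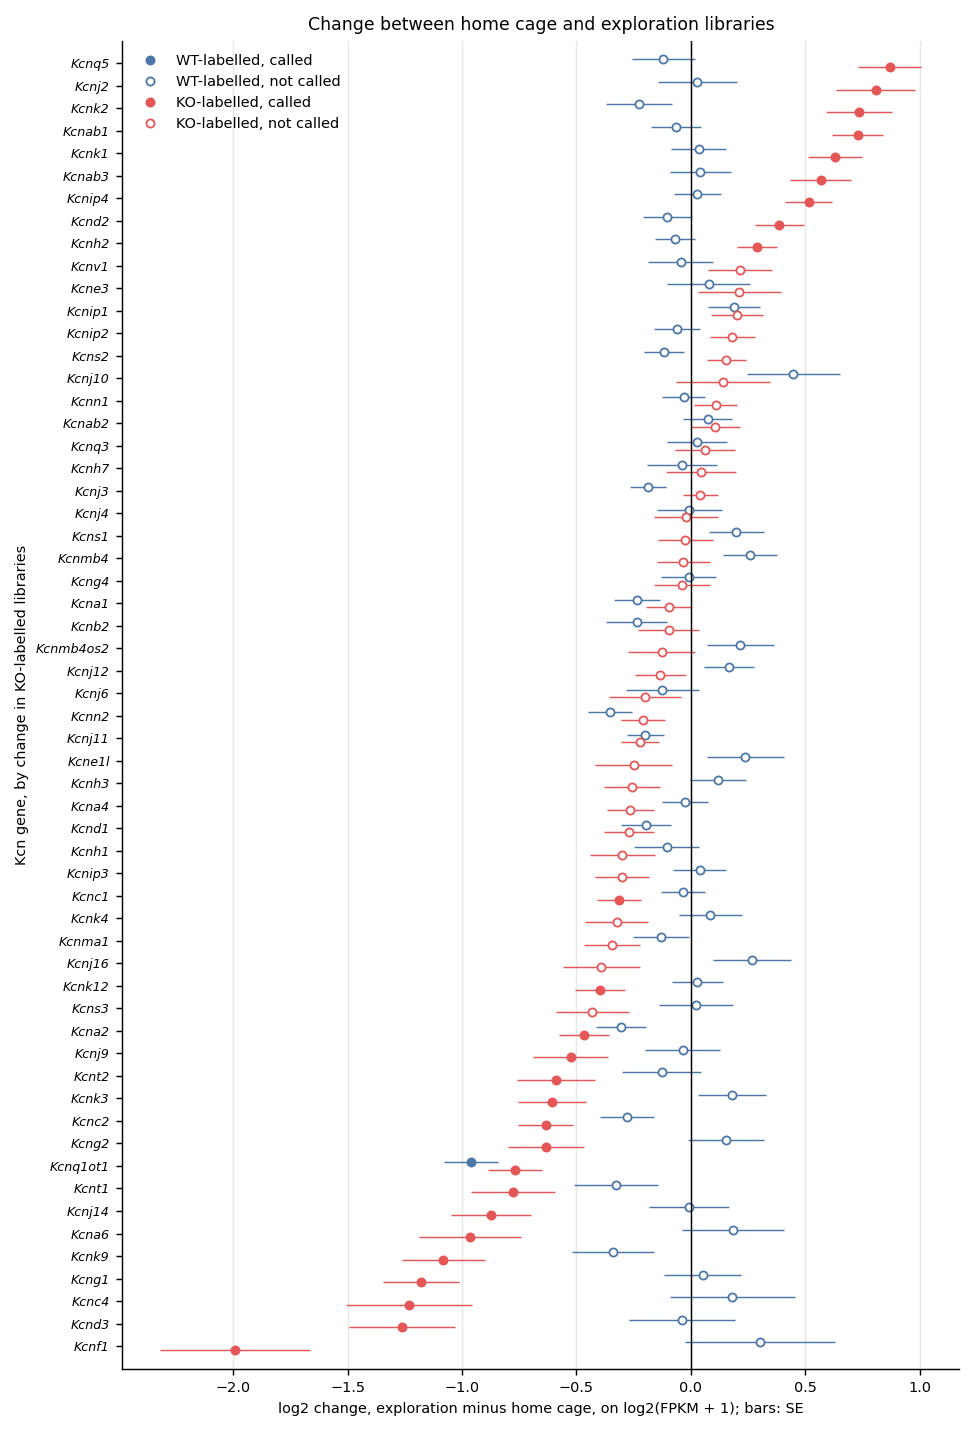
Log2 change from home cage to exploration on log2(FPKM + 1) for 58 tested Kcn genes, ordered by the change in KO-labelled mice (red) beside that in WT-labelled mice (blue); bars are SE, filled points are called. Red points spread from -1.99 (Kcnf1) to 0.87 (Kcnq5), and blue points from -0.96 (Kcnq1ot1) to 0.45 (Kcnj10). Among the blue points only Kcnq1ot1 is filled.

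Averaged over both labels, 21 of the 61 Kcn genes were called between home cage and exploration, 6 higher and 15 lower. This was 34.4% of the tested family beside 31.9% of all genes, with 9.84% higher beside 12.6% and 24.6% lower beside 19.2%. Kcnq1ot1 (-0.86 ± 0.08, SE, adjusted p = 8.08e-05), Kcnk9 (-0.71 ± 0.13, SE, adjusted p = 0.00257) and Kcnc2 (-0.46 ± 0.08, SE, adjusted p = 0.003) had the lowest adjusted p. Kcnq1ot1 passed the filter through its home cage values alone, and its adjusted p with no filter was 3.8e-05 (limma). Kcna2, Kcng1, Kcnt1, Kcnn2 and Kcnd3 were lower too, with changes of -0.39, -0.56, -0.55, -0.28 and -0.65 on the log2 scale. Kcnab1 and Kcnk1 were higher, with 0.33 and 0.33. With size factors the share of all calls that were higher moved from 39.7% to 51.9%, and the family's calls to 7 higher and 14 lower. The calls fell to 9 with KO-labelled home cage library 2 left out, and to 10 with WT-labelled home cage library 2 left out.

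The change from home cage to exploration itself differed between labels in 4 Kcn genes, 6.56% of the tested family beside 0.875% of all genes. The limma contrast of the changes (KO-labelled minus WT-labelled) was 0.79 ± 0.16 (SE, adjusted p = 0.0496) for Kcnab1, 0.99 ± 0.20 (SE, adjusted p = 0.0496) for Kcnq5, -1.23 ± 0.24 (SE, adjusted p = 0.0496) for Kcng1 and -2.29 ± 0.46 (SE, adjusted p = 0.0496) for Kcnf1. Kcnab1 and Kcnq5 thus changed more upward in the KO-labelled mice, and the silent subunits Kcng1 and Kcnf1 more downward. This contrast is also the label difference after exploration minus that in the home cage. It is therefore not independent of the home cage comparison between labels. In the order above, the label differences were 0.08, 0.10, -0.24 and -0.92 after exploration. In the home cage they were -0.71, -0.89, 0.99 and 1.38. In the WT-labelled mice alone the same genes changed by -0.06, -0.12, 0.05 and 0.30, none of them called. Kcnf1 measured 2.99 and 6.31 FPKM in the WT-labelled home cage and 7.38, 5.60 and 4.36 FPKM after exploration, overlapping ranges, against the separated ranges in the KO-labelled mice given above. Kcnk2 came next with 0.96 ± 0.20 (SE, adjusted p = 0.0516). These calls lie close to the threshold: all 4 were lost without KO-labelled home cage library 2, WT-labelled home cage library 1, WT-labelled exploration library 1 or 2, or KO-labelled exploration library 2 or 3, while 13 genes passed with KO-labelled home cage library 1 left out, and 7 with the first KO-labelled exploration library left out. With a pseudocount of 0.1, with no filter or with no variance trend, 0 were called.

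The composition of several families differed between groups. Shares of summed FPKM within a family compare genes per length and are free of the library's total. Kcnd3 averaged 2.2% of Kv4 FPKM in the WT-labelled home cage, 7.5% in the KO-labelled home cage, and 2.3% and 1.9% after exploration under the WT and KO labels. Kcna6 averaged 6.5%, 14.8%, 8.9% and 8.4% of the 4 tested Kv1 genes in that order, and Kcnip3 9.3%, 14.7%, 9.7% and 10% of the KChIP genes. For these 3 genes the KO-labelled home cage mean stood furthest from the other 3, and KO-labelled home cage library 2 further than library 1. Elsewhere the KO-labelled exploration libraries stood apart: Kcna1 averaged 35.0%, 32.2%, 33.0% and 39.5% of the Kv1 genes, Kcnj3 63.2%, 61.2%, 61.3% and 68.4% of the GIRK genes and Kcnj9 23.7%, 25.5%, 25.5% and 19.1%, in the same order of groups. The shares were not tested.

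**Figure D4:**
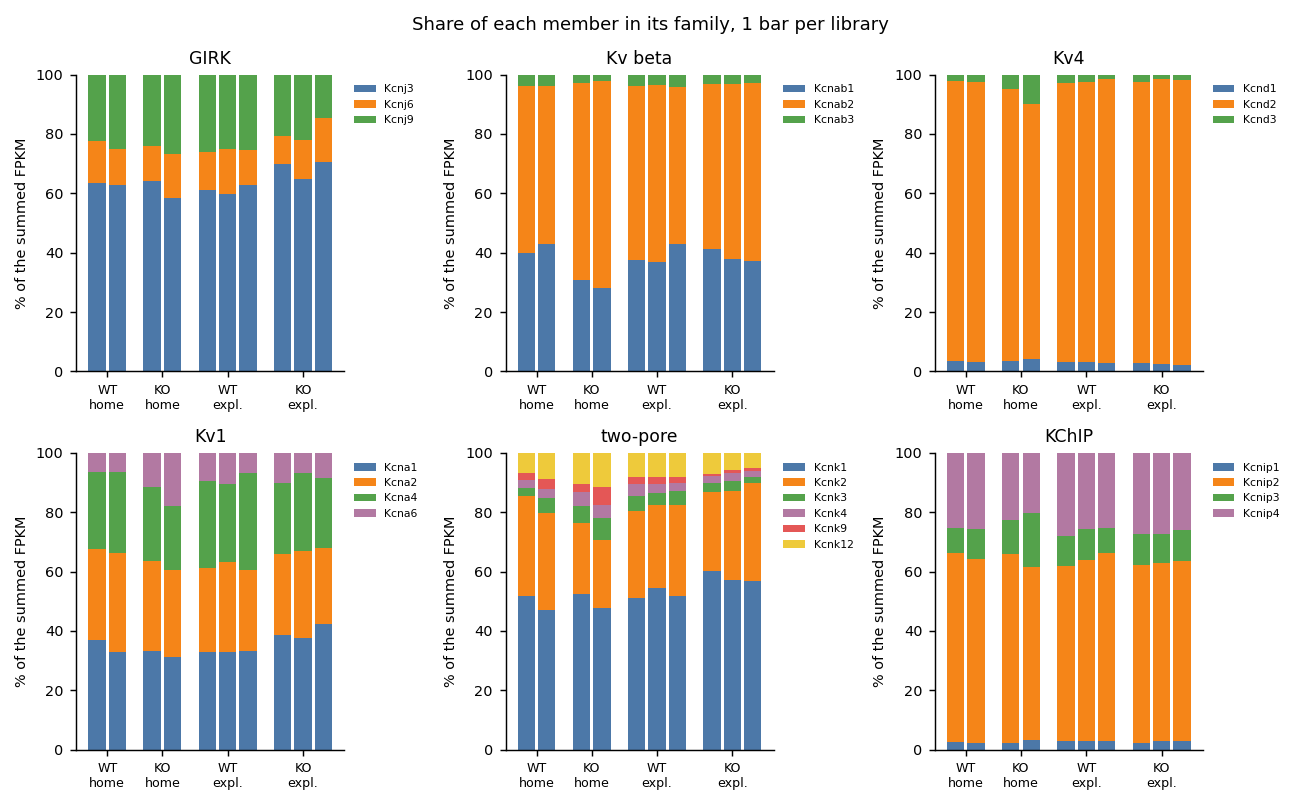
Share of each gene in the summed FPKM of its family (%), 1 bar per library in the order of the 4 groups (WT and KO are the labels), for 6 families. The KO-labelled home cage bars hold less Kcnab1 (30.9% and 28.0%), more Kcnd3 (4.9% and 10.1%) and more Kcna6 (11.6% and 18.1%) than the WT-labelled home cage bars.

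Of the 32 Kcn genes that did not pass the filter, 29 stayed below 1 FPKM in every library and 9 were listed at 0 in at least 5 libraries. Kcnn3 (SK3) was the highest, at 0.69 and 0.87, 0.99 and 1.90, 0.83, 0.69 and 0.66 and 0.61, 0.57 and 0.50 FPKM in the WT-labelled home cage, KO-labelled home cage, WT-labelled exploration and KO-labelled exploration libraries. For Kcnn3 only KO-labelled home cage library 2 was above 1 FPKM. Kcne2, the beta subunit of choroid plexus epithelium, and Kcnj13 (Kir7.1), a rectifier of the same epithelium, are named after their values were seen. Kcne2 measured 1.21 and 0.03 FPKM in the WT-labelled home cage libraries, 0.07 and 0.03 FPKM in the KO-labelled ones, 0.63, 0.60 and 0.03 FPKM in the WT-labelled exploration libraries and 0.06, 0 and 0.03 FPKM in the KO-labelled ones. Kcnj13 measured 0.41 and 0, 0 and 0.05, 0.33, 0.28 and 0.07 and 0, 0 and 0.02 FPKM in the same order. For both genes the 3 high libraries were the 3 with high Ttr, and no other library passed 0.07 FPKM. Folr1 and Clic6, also choroid plexus markers, were at most 0.06 FPKM outside those 3 libraries. Kl, the remaining marker of that list, did not follow them, at 12.2 to 14.7 FPKM in those 3 and 8.61 to 14.1 FPKM elsewhere.

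**Figure D5:**
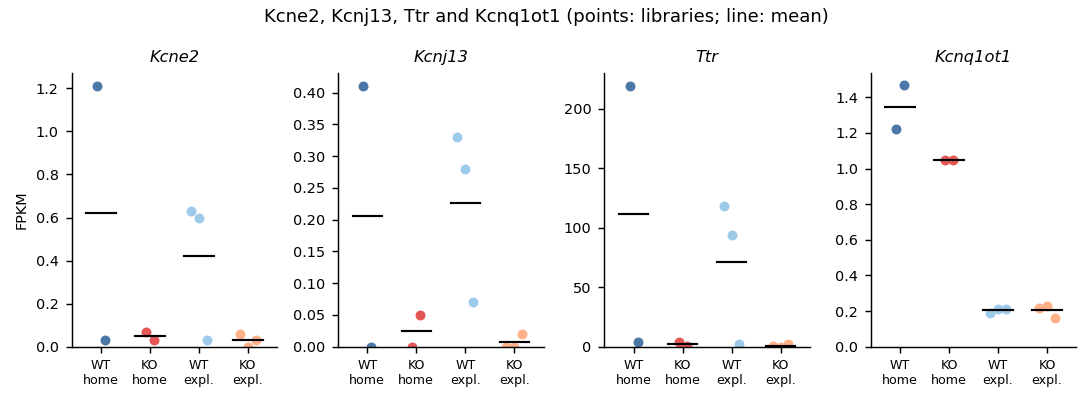
FPKM (linear axis from 0) of Kcne2, Kcnj13, the choroid plexus marker Ttr and the noncoding Kcnq1ot1 in the 4 groups (WT and KO are the labels); points are libraries and the line is the group mean. Kcne2, Kcnj13 and Ttr are high in the same 3 WT-labelled libraries, whereas Kcnq1ot1 separates all 4 home cage libraries (1.05 to 1.47 FPKM) from all 6 exploration libraries (0.16 to 0.23 FPKM).

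Genes that work with potassium channels but lie outside the family were followed as a list of 25, of which 24 were found and 19 tested. None was called between labelled genotypes in the home cage, after exploration or averaged, where 3.57%, 0.597% and 2.13% of all genes were. Adam22, a receptor of the LGI1 complex that sits with axonal Kv1 channels, was the only one called from home cage to exploration in the WT-labelled mice (-0.38). This was 5.3% of the 19 beside 6.31% of all genes. In the KO-labelled mice 1 was called higher and 6 lower, 36.8% of the 19 beside 28.6% of all genes. Lgi1, the secreted ligand of that complex, fell by 0.43 on the log2 scale, Adam22 by 0.40 and Ank3, the scaffold of the axon initial segment, by 0.35. Vapa, which ties Kv2 channels to the endoplasmic reticulum, rose by 0.26. The list's median change there was -0.20, beside -0.21 for the Kcn genes and -0.04 for all genes. Averaged over labels 6 were called lower and 0 higher, 31.6% of the 19 beside 31.9% of all genes called in either direction, with Lgi1 at -0.32, Adam22 at -0.39, Ank3 at -0.32 and Cntnap2, which clusters Kv1 channels at the juxtaparanode, at -0.18.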

How the data were processed

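The authors deposited FPKM, 1 value for each gene in each library. HISAT, StringTie, GATK, Bowtie2 and RSEM and the builds GRCm38 and mm10 are named in the submitters' processing notes, with no role or version, and strand use is not given in the sources used here. Home cage and exploration values stand in separate tables, joined here by gene ID. FPKM gives no counts, so depth per library is unknown. FPKM summed to 405722 to 466710 per library, with 11114 to 11623 genes at 1 FPKM or more.

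The 11892 genes that reached 1 FPKM in 2 or more libraries were tested on log2(FPKM + 1) by limma 3.58.1 (R 4.3.3), with a variance trend, 1 mean per group over all 10 libraries, 6 residual and 5.71 prior degrees of freedom, and Benjamini-Hochberg adjustment over all tested genes in each of 7 contrasts. The script was tested on simulated data. P-values cover the spread between these mice only. As alternatives, the pseudocount was set to 0.1, the filter was dropped or raised to 5 FPKM, and the fits were run with median-of-ratios size factors, no trend, only the groups compared, each library left out and, added after seeing the data, the 3 libraries with high Ttr left out.

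The family and the gene lists were chosen with earlier results of these data known. Named were 40 channel genes listed for their known roles, the 5 highest members, up to 12 called members per comparison (lowest adjusted p first) and up to 5 called partner genes. Some genes under these rules are not reported here, but counts over the family include every member. Positions and promoters are those of RefSeq for GRCm38.p6. All 93 genes had a position, and 20 overlapped another listed gene.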

Additional observations from a re-analysis of the deposited data

Results flagged for a closer look

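The log2 change from home cage to exploration differed between labels (KO-labelled minus WT-labelled, limma, called at an adjusted p under 0.05) in 4 of the 61 tested Kcn genes. The difference was 0.79 for Kcnab1 and 0.99 for Kcnq5. For the silent subunits it was -1.23 for Kcng1 and -2.29 for Kcnf1. Each had an adjusted p of 0.0496. These differences share the home cage libraries with the comparison between labels there, so they are not independent of it. The KO-labelled home cage group, which enters each of these differences, has 2 libraries, and each call was lost in 7 of the 10 fits that left 1 library out.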

How the results depend on the processing

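No sign of a called member changed under any alternative run. With no filter, no trend or only the groups compared the log2 changes stay the same, so those runs could not change a sign. Nor could leaving out 1 library where the 2 groups compared stood apart. Among the values of single called members under the alternatives, 846 stayed called and 257 did not. Called members between labels in the home cage numbered 12, and 0 with no filter, 6 with a filter of 5 FPKM and 0 without the 3 libraries with high Ttr. Averaged over environments 2 were called, and 0 with no filter and 0 without those 3 libraries. From home cage to exploration in WT-labelled mice 1 was called, 0 with the filter of 5 FPKM, 5 with only the groups compared and 0 without the 3 libraries. In KO-labelled mice 28 were called and 18 with the filter of 5 FPKM, which tests 41 members. Averaged over labels 21 were called, 13 with that filter and 12 without the 3 libraries. The difference between the changes was called in 4 members, in 2 with the filter of 5 FPKM, and in 0 with a pseudocount of 0.1, no filter, no variance trend or without the 3 libraries. With each library left out in turn the counts ran from 0 to 17, 0 to 6, 1 to 3, 6 to 29, 9 to 28 and 0 to 13 in the same order, and stayed at 0 between labels after exploration. Where 1 library was left in a group, it was assumed to vary like the others. Which property of the libraries moves these counts was not tested. The counts under alternatives, here and above, are of Kcn genes alone. Without the calls over all genes in the same run, they do not tell a change in the family from one in the whole table. No paired analysis was possible because the libraries are of different mice and their numbers only name them. Values of low members rest on few fragments, and FPKM does not give how many.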
